A study of Rattus norvegicus with 40 samples.

Results

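Transcripts of the 4 genes for the pulmonary surfactant proteins SP-A (Sftpa1), SP-B (Sftpb), SP-C (Sftpc) and SP-D (Sftpd) were followed in fetal rat lung, with fetal intestine as the other organ. The members were all probe sets whose platform annotation names 1 of these genes alone, which gave 6 of 31099 probe sets for 4 of 14217 annotated genes. On Affymetrix arrays a transcript is read by several short oligonucleotides, which together form its probe set. Sftpa1 and Sftpb had 2 probe sets each, and Sftpc and Sftpd had 1 each. For a gene with 2, the probe set with the higher mean over all arrays is called the first.

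The comparison was between Wistar rat embryos, for which the labels name no treatment or genetic change, in 4 groups: whole lung at gestational day 20 (E20), whole lung at day 16 (E16), whole intestine at E20 and whole intestine at E16, with 10 arrays in each. According to its title the study concerned changes that prepare the 2 organs for birth. Label was made from 2 µg of total RNA for lung and from 1 µg for intestine, so organ and amount of RNA cannot be told apart. The protocol speaks of frozen tissue from several embryos of the same parents. Whether an array stands for a single embryo is therefore not known. The p-values cover the spread among the arrays of a group, part of which may be technical.

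Surfactant is the film of lipid and protein that lowers surface tension in the air spaces and keeps them open when breathing starts. It is made by alveolar type II cells, which store it in lamellar bodies. SP-B and SP-C are small hydrophobic proteins cut from larger precursors, and they help the lipid spread into the film. SP-A and SP-D are collectins, soluble lectins with a collagen-like stalk that bind microbes. SP-A, SP-B and SP-D are also made by airway club cells, whereas SP-C is used as a marker of the distal lung epithelium and of type II cells.

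Promoter sequences are shown for the pair of members with an entry in the RefSeq table (rat assembly GRCr8), since both stood near their intestinal level in lung at E16 and their first probe sets ranked 2 and 3 among all rises there (Sftpb, then Sftpa1). Each sequence runs 5′ to 3′ from 250 bases before a transcription start to 50 bases from it on, and capitals mark matches to the motifs searched. Both lie on the plus strand, at chr16:17042014-17042313 for Sftpa1 and at chr4:105917338-105917637 for Sftpb, where the start used lies 93 bases downstream of the outermost start of the gene.
Sftpa1: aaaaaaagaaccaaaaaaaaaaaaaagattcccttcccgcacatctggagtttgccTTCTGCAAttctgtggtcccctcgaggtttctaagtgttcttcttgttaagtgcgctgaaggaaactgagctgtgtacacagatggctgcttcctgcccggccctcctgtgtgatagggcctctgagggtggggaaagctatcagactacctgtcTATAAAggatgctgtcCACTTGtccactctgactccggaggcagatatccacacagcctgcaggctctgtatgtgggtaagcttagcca
Sftpb: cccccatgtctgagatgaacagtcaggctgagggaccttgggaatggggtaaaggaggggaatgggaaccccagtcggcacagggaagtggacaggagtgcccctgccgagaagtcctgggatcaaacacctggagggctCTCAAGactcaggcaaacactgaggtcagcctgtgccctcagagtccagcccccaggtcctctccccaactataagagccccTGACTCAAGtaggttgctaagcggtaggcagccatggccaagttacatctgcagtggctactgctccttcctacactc

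The motifs were searched on both strands. NKX2-1, a homeodomain factor of lung and thyroid epithelium, was represented by the letters CAAGTG and CTCAAG, forkhead factors by TNTTTAC, C/EBP factors by TTGCNNAA, AP-1 by TGANTCA, the glucocorticoid receptor by AGAACA and TGTTCT with any 3 bases between, and the TATA box by TATAAA. The Sftpa1 window held CAAGTG on the reverse strand at positions -23 to -18 from the start, TATAAA at -39 to -34 and TTGCNNAA on the reverse strand at -194 to -187. The Sftpb window held CTCAAG at 2 places, at -110 to -105 and at -25 to -20. The second of these overlaps a match to TGANTCA at -28 to -22. Among 33469 rat promoters of the same length, 14.1% held CAAGTG, 15.8% CTCAAG, 10.6% TTGCNNAA, 7.33% TGANTCA and 14.2% TATAAA, so each match on its own is common. TNTTTAC, present in 13.3% of promoters, and the glucocorticoid receptor motif, present in 0.0149%, had no match in these windows.

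Over the whole table, array medians lay between 225 and 248 intensity units in lung E20, 220 and 234 in lung E16, 234 and 248 in intestine E20 and 241 and 263 in intestine E16. Pairs of arrays of a group correlated at 0.958 or more, and none were alike enough to be a duplicate (highest r = 0.994). The organ labels were checked against Nkx2-1, the lung epithelial regulator, and Cdx2, the intestinal one. At E16 Nkx2-1 averaged 9.71 ± 0.42 log2 units in lung and 6.68 ± 0.24 in intestine (SD, n = 10), whereas Cdx2 averaged 6.61 ± 0.15 in lung and 7.81 ± 0.47 in intestine. Of 7 enterocyte markers, 7 had a mean over the table-wide median of 7.89 log2 units in intestine at E20, and 1 did so at E16. Lung E20 replicates 1 and 8 carried liver transcripts (8 markers summed to 9258 and 10372 intensity units, against 790 to 1064 in the other 8 arrays) and replicate 6 carried the most mesothelial transcripts (10918 over 6 markers, against 6949 to 9844). Intestine E16 replicate 9 carried liver transcripts as well (15049, against 1178 to 2789 in the other 9), and replicates 6 and 8 were left out with it in an alternative on the strength of earlier results. Lung E16 replicate 9 had 24271 units over 6 cardiac markers, while the group median was 1406. Below, the arrays that carry other tissues are lung E20 replicates 1, 6 and 8 and intestine E16 replicates 6, 8 and 9. The name is loose: the liver sums of intestine E16 replicates 6 and 8 lay within 1178 to 2789. Nor does it cover all liver transcripts: the 8 markers summed to 1558 to 6703 in lung E16 and to 8035 to 16431 in intestine E20. Both ranges lie above the 790 to 1064 of the other 8 lung E20 arrays. The part of admixed tissue in these sums was not tested. Lung E16 replicate 9 is not in this set and was kept unless stated.

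In lung, transcripts of all 4 surfactant proteins rose between E16 and E20, but they started from different places. Sftpc was already bright in lung at E16, far above its level in intestine, and rose 12.5-fold. Sftpa1, Sftpb and Sftpd stood at E16 near their levels in intestine, and by E20 their first probe sets had risen 125-fold, 140-fold and 56-fold. In intestine none of the genes changed by the criteria used. A probe set was called where the limma adjusted p was under 0.05 and the difference was at least 2-fold. In lung 6 of 6 member probe sets were called higher and 0 lower, against 5.24% and 3.79% of the 31042 tested, and in 6 of 6 every E20 array lay above every E16 array, as in 10.9% of all probe sets.

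**Figure D1:**
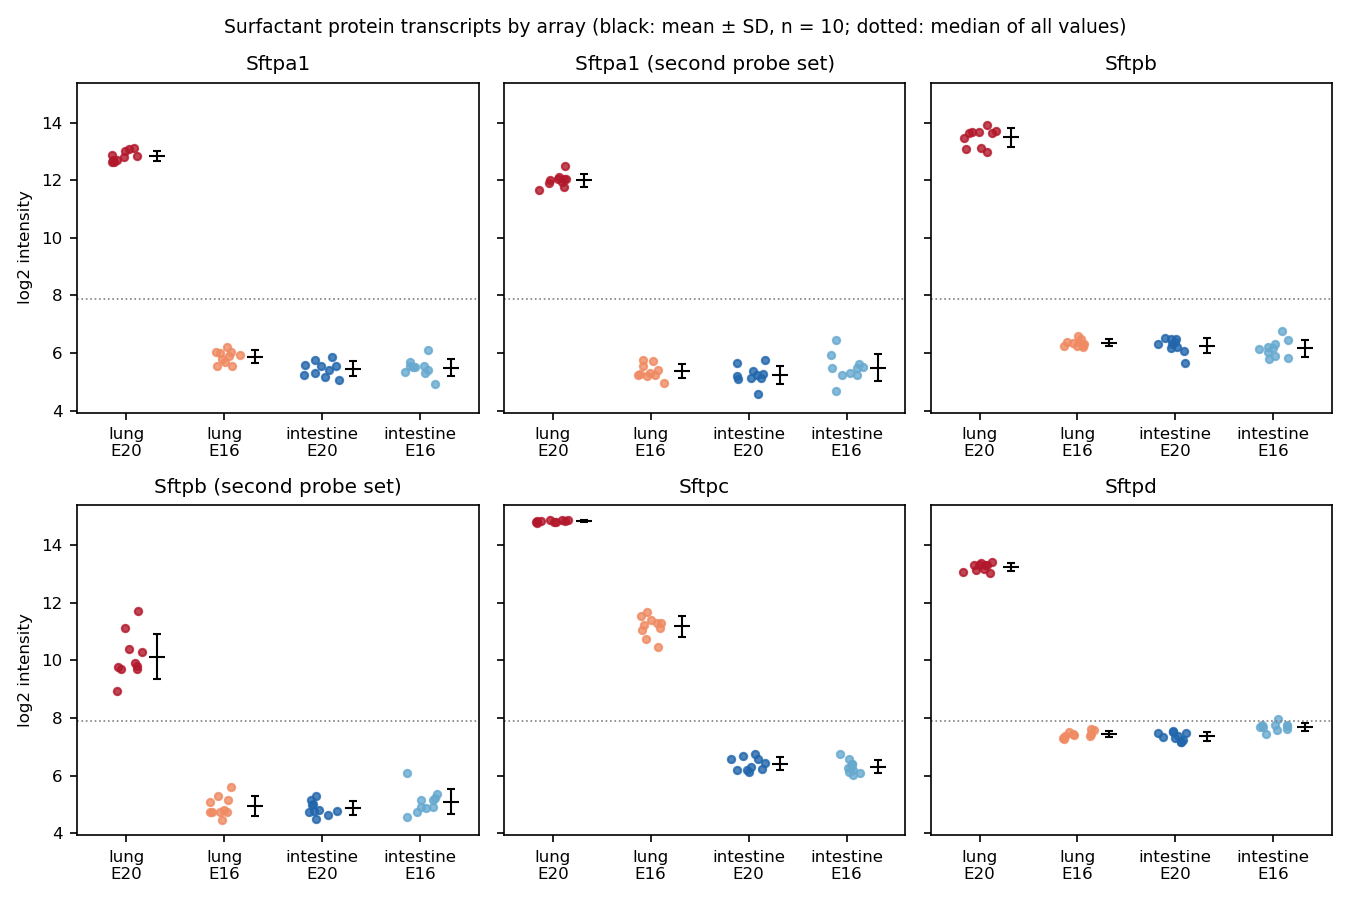
Log2 intensity of the 6 member probe sets (vertical axis) in lung E20, lung E16, intestine E20 and intestine E16, with 1 point for each of 10 arrays and black bars for mean ± SD. Lung at E20 stands alone at the top in every panel, and Sftpc is the only member whose lung E16 arrays (10.46 to 11.69) also stand clear of intestine.

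SP-B is needed for the surface film to form, and its absence is lethal at birth in mice and humans. The first Sftpb probe set read 12.98 to 13.90 log2 units in lung E20 (median 13.64), against 6.21 to 6.59 in lung E16 (median 6.33). The difference was 7.13 (SE 0.11, 95% interval 6.91 to 7.36, limma adjusted p = 7.17e-38), the second largest rise in lung of any probe set tested. All lung E16 arrays lay within the range of intestine at the same age, where Sftpb read 5.80 to 6.75.

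The second Sftpb probe set rose less and was far more variable. It read 8.95 to 11.73 in lung E20 (median 9.84), against 4.46 to 5.60 in lung E16 (median 4.78), a difference of 5.19 (SE 0.21, limma adjusted p = 1.56e-23). The groups did not overlap. This rise ranked 22 among all probe sets in lung, against 2 for the first probe set. Replicate 2 was highest and replicate 6 lowest at E20, and the SD there was 0.80, against 0.32 for the first probe set. Within lung E20 the 2 probe sets of Sftpb were not shown to move together (Pearson r = 0.35, permutation p = 0.319, adjusted p = 0.51; Spearman rho = 0.18, permutation p = 0.633; n = 10; r = 0.12 without the 2 arrays farthest from the median, and -0.28 over 7 arrays without replicates 1, 6 and 8). Both probe sets of Sftpb gave the same direction, with a different size and a different spread between arrays.

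SP-C is the most lung-specific of the surfactant proteins. Its transcript read 14.78 to 14.87 log2 units in lung E20 (median 14.84), against 10.46 to 11.69 in lung E16 (median 11.26), with no overlap. The difference was 3.65 (SE 0.11, 95% interval 3.43 to 3.86, limma adjusted p = 1.4e-28). At E16 replicate 5 was lowest and replicate 3 highest. The SD was 0.035 at E20 and 0.37 at E16.

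The E20 level of Sftpc lies at the top of the measured scale. On each lung E20 array only 4 to 6 of the 31042 probe sets were brighter, and the brightest value on these arrays was 15.21 to 15.26. The 76 probe sets with a lung E20 mean above 14 had a median SD of 0.067, and 6 of them, Sftpc included, had an SD no larger than that of Sftpc. How far a ceiling limits its rise and its spread was not tested.

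SP-A is the most abundant surfactant-associated protein in adult lung. The first Sftpa1 probe set read 12.63 to 13.11 in lung E20 (median 12.83), against 5.56 to 6.22 in lung E16 (median 5.91), and the second read 11.68 to 12.51 (median 12.02), against 4.98 to 5.77 (median 5.29). Neither probe set overlapped between the ages. The first differed by 6.97 (SE 0.11, 95% interval 6.76 to 7.18, limma adjusted p = 2.94e-38), and the second by 6.63 (SE 0.14, limma adjusted p = 2.7e-33), so both gave a rise of about the same size. Within lung E20 they also ranked the arrays alike, with replicate 9 highest and replicate 8 lowest in both (r = 0.79, permutation p = 0.00115, adjusted p = 0.0276; rho = 0.88, permutation p = 0.00163, adjusted p = 0.0391; n = 10; r = 0.74 without the 2 farthest arrays).

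SP-D, the other collectin of the family, is known from mice to affect the surfactant lipid pool as well as defence. Its probe set read 13.02 to 13.40 in lung E20 (median 13.31), against 7.28 to 7.62 in lung E16 (median 7.42), with no overlap. The difference was 5.81 (SE 0.060, 95% interval 5.69 to 5.93, limma adjusted p = 1.98e-44). All lung E16 arrays were below the median of all values, and so was the mean of every group other than lung E20.

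The size of these differences depends on how dim values are treated, least for Sftpc, which was not dim in lung at either age. With 50 intensity units added before taking log2, which damps dim values, the rise in lung was 6.45 for the first and 3.86 for the second Sftpb probe set, 6.09 and 5.50 for Sftpa1, 5.45 for Sftpd and 3.62 for Sftpc. No detection calls were used, so the folds of Sftpa1, Sftpb and Sftpd rest on an E16 level that may be background. In whole-organ RNA, fewer cells of a type and less RNA per cell cannot be told apart.

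In intestine, 0 of 6 member probe sets were called in either direction, against 6.25% called higher and 5.55% called lower over all probe sets. Sftpc read 6.14 to 6.76 at E20 (median 6.37), against 6.03 to 6.74 at E16 (median 6.28), a difference of 0.097 (SE 0.11, limma adjusted p = 0.446). The first Sftpb probe set differed by 0.095 (limma adjusted p = 0.487) and the first Sftpa1 probe set by -0.044 (limma adjusted p = 0.74). The ages overlapped in every member, so that 0 of 6 had every E20 array above every E16 array, as 11.9% of all probe sets did. The 95% intervals of the 6 differences in intestine ran from -0.66 at the lowest to 0.32 at the highest. As these levels may be background, the intervals bound the change in signal and not that in transcript.

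Sftpd was the member with an adjusted p under 0.05 in intestine. It read 7.16 to 7.55 at E20 (median 7.34), against 7.43 to 7.95 at E16 (median 7.70), a difference of -0.33 (SE 0.060, limma adjusted p = 6.69e-06), which is less than 2-fold. The median of all probe sets differed by -0.10 in the same comparison. With arrays centred on their median the Sftpd difference was -0.28 (limma adjusted p = 2.36e-05), and after quantile normalization -0.29 (limma adjusted p = 8.6e-06). Without the intestine E16 and lung E20 arrays that carry other tissues, the Sftpd difference was -0.35.

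The change in lung exceeded that in intestine for 6 of 6 probe sets, and was the smaller for 0 of 6, where 7.64% and 6.07% of all probe sets were called. The difference between the changes was 7.04 for Sftpb (SE 0.16, limma adjusted p = 5.12e-32), 7.01 for Sftpa1 (SE 0.15), 6.14 for Sftpd (SE 0.085) and 3.55 for Sftpc (SE 0.15, limma adjusted p = 4.94e-23). The second probe sets gave 5.42 for Sftpb and 6.89 for Sftpa1.

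**Figure D2:**
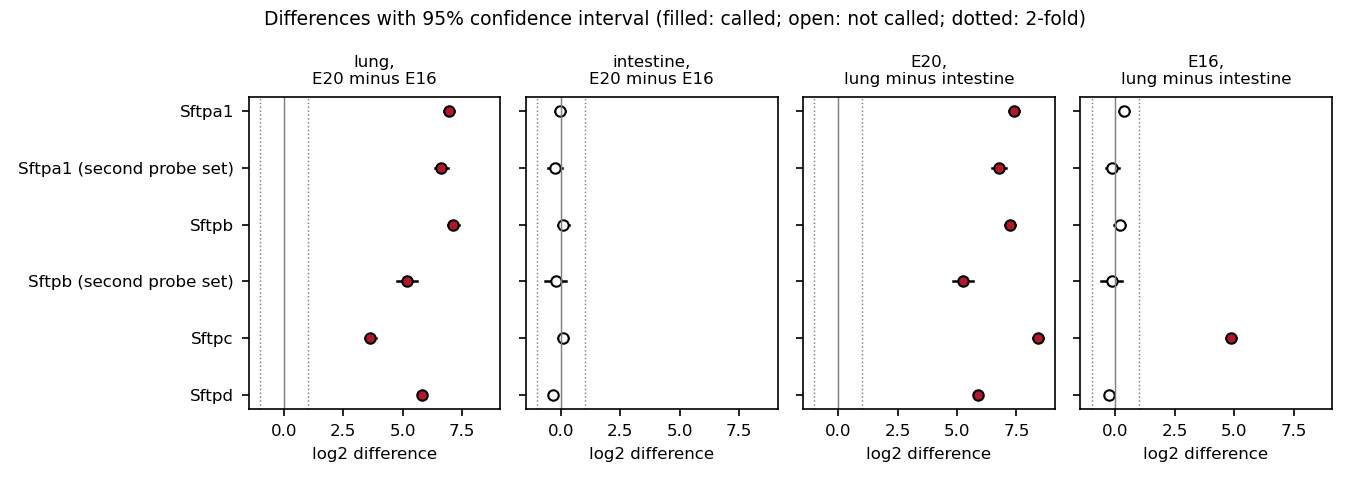
Log2 differences of the 6 member probe sets with 95% confidence intervals (horizontal axis) for E20 minus E16 in lung and in intestine and for lung minus intestine at E20 and at E16. Filled points were called, open points were not, and dotted lines mark 2-fold. All 6 were called in lung between the ages and between the organs at E20, and at E16 Sftpc was the member that separated lung from intestine (4.87).

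The comparison of the organs at E16 asked which surfactant genes were already on in the lung. Sftpc was 29.2-fold higher in lung, at 10.46 to 11.69 log2 units against 6.03 to 6.74 in intestine (difference 4.87, SE 0.11, limma adjusted p = 1.52e-32), and the groups did not overlap. With 50 units added the difference was 4.19, so its size depends on the dim intestinal level. Of the 6 member probe sets 1 was called higher and 0 lower, against 1.68% and 2.48% of all probe sets, and 1 had every lung array above every intestine array, against 6.21%. The other 5 member probe sets were not called, and all of them overlapped between the organs.

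The first Sftpa1 probe set differed by 0.38 at E16 (SE 0.11, limma adjusted p = 0.00242), with 5.56 to 6.22 in lung and 4.94 to 6.11 in intestine, but the second differed by -0.13 (limma adjusted p = 0.434). The probe sets thus disagree on whether Sftpa1 was higher in lung at this age. Sftpb differed by 0.19 (limma adjusted p = 0.146) and by -0.16 in its second probe set (limma adjusted p = 0.533). Sftpd was lower in lung by a small margin, at 7.28 to 7.62 against 7.43 to 7.95 (difference -0.26, SE 0.060, limma adjusted p = 0.000438), under the 2-fold minimum. Scaling matters at this level: the median of all probe sets differed by -0.15 between the organs, and by 0.00365 once each array was centred on its median. After quantile normalization the first probe sets of Sftpa1 and Sftpb differed by 0.70 and 0.43 (limma adjusted p = 8.19e-07 and 0.00178), both still under 2-fold, and Sftpd by -0.085 (limma adjusted p = 0.192). The adjusted p of Sftpb was also under 0.05 with arrays centred (0.0108), with array weights (0.0389) and without the arrays that carry other tissues (0.0473), whereas that of its second probe set was not in any of these (0.486 or more).

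At E20 all 6 member probe sets were higher in lung than in intestine without overlap, where 6.53% of all probe sets were called higher, 6.05% were called lower and 12.4% had every lung array above every intestine array. The difference was 8.42 for Sftpc (SE 0.11, limma adjusted p = 1.06e-41), 7.39 for Sftpa1, 7.23 for Sftpb and 5.89 for Sftpd. With 50 units added it was 7.75 for Sftpc, 6.30 for Sftpa1, 6.50 for Sftpb and 5.51 for Sftpd, so the sizes, and the order of Sftpa1 and Sftpb, depend on the dim intestinal values. These comparisons share arrays with the age comparisons. Ordered by level, lung E20 came first for every member. For Sftpc lung E16 came next and then both intestine groups, which overlapped, whereas for Sftpa1, Sftpb and Sftpd the ranges of lung E16 and both intestine groups overlapped.

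The members were then compared among the 10 lung E20 arrays. The first Sftpb probe set fell into separate ranges: 12.98 to 13.11 in replicates 1, 6 and 8, which carry liver or mesothelial transcripts, and 13.48 to 13.90 in the other 7. The second Sftpb probe set did not separate in this way (8.95 to 10.30 in replicates 1, 6 and 8, against 9.70 to 11.73 in the other 7), and neither did the other members. In the replicates 1, 6 and 8 the first Sftpa1 probe set read 12.63 to 12.80, against 12.69 to 13.11 in the other 7. Sftpd read 13.02 to 13.17 in them, against 13.07 to 13.40. Sftpc read 14.78 to 14.82, against 14.79 to 14.87. Alveolar type II markers deviated from the group mean by -0.41, -0.44 and -0.36 in replicates 1, 6 and 8. Alveolar type I markers deviated by -0.31, -0.21 and -0.37 in them and club cell markers by -0.62, -0.12 and -0.37. Epithelial markers of all these kinds were thus below the group mean in the same arrays. Club cell markers were also low in replicate 4 (-0.35), lower than in replicate 6. The part of admixed tissue in these levels was not tested. Without these 3 arrays and intestine E16 replicates 6, 8 and 9, the rise in lung was 7.32 for Sftpb, 7.03 for Sftpa1, 5.86 for Sftpd and 3.66 for Sftpc.

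**Figure D3:**
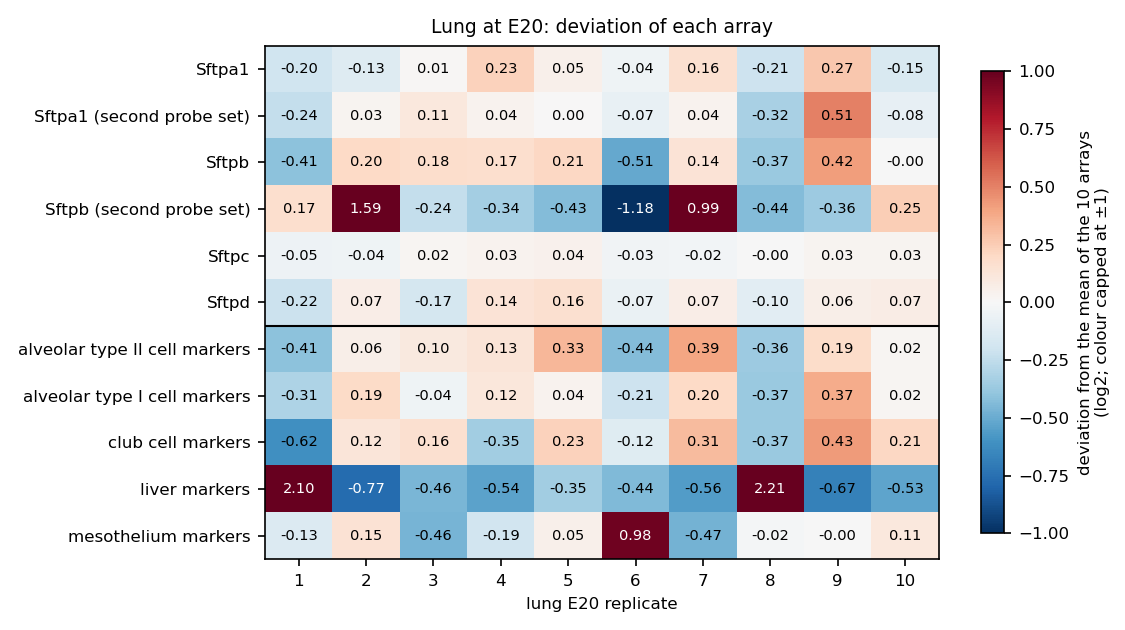
Deviation of each lung E20 array (columns, replicates 1 to 10) from the mean of the 10 arrays in log2 units, for the 6 member probe sets (upper rows) and the mean of 5 marker lists (lower rows). Replicates 1, 6 and 8 are low in the first Sftpb probe set and in alveolar markers, and carry more liver (1 and 8) or mesothelial (6) transcripts, while Sftpc hardly varies.

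Pairs of members were correlated within lung at each age, 12 relations in a family of 24 that also held the probe set pairs and the most similar genes below. At E20 the 6 pairs had r from 0.50 to 0.68, and none passed after adjustment. The highest was Sftpa1 with Sftpb (r = 0.68, permutation p = 0.0322, adjusted p = 0.193; rho = 0.64, permutation p = 0.0559; n = 10; r = 0.55 without the 2 farthest arrays). Without replicates 1, 6 and 8 the pair had r = 0.63 over 7 arrays, and the other 5 pairs had r from -0.0063 (Sftpb with Sftpd) to 0.30 (Sftpa1 with Sftpc), against 0.50 to 0.63 over all 10. At E16, with Sftpa1, Sftpb and Sftpd dim, the 6 pairs had r from -0.29 to 0.22, and the lowest permutation p was 0.409 (adjusted p = 0.614, n = 10).

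Genes with the most similar profile were named by the root-mean-square difference between centred means of the 4 groups, in log2 units, among 13854 genes. Lamp3, a membrane protein of lamellar bodies, was closest to Sftpc with a difference of 0.19. It averaged 13.21 ± 0.17 in lung E20 and 9.06 ± 0.54 in lung E16 (SD, n = 10), and lay at 4.67 and 4.51 in intestine E20 and E16. The next genes were already less alike: Scgb1a1, the club cell secretoglobin (0.86), Cldn18, a tight junction claudin (1.01), the endopeptidase gene Phex (1.31) and Tbx4, a transcription factor of lung mesenchyme (1.34). Phex and Tbx4 did not share the rise in lung. They averaged 10.75 and 11.23 in lung E20, against 10.67 and 11.31 in lung E16. Within lung E16 Lamp3 and Sftpc had r = 0.73 (permutation p = 0.0174, adjusted p = 0.172; rho = 0.60, permutation p = 0.0733; n = 10), which did not pass, with r = 0.55 without the 2 farthest arrays. Within lung E20 the sign was the opposite (r = -0.39, permutation p = 0.262, adjusted p = 0.483; rho = -0.20, permutation p = 0.583; n = 10; r = -0.40 without the 2 farthest arrays). That sign depends on scaling: r was 0.0053 with arrays centred on their median, and -0.31 over 7 arrays without replicates 1, 6 and 8. Sftpc hardly varied between these arrays (SD 0.035).

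Sftpd was closely matched by Chia, an acidic chitinase (0.12), Clic3, a chloride intracellular channel protein (0.13), Slc6a14, an amino acid transporter (0.19), Defb4, a beta-defensin (0.20), and Gramd2a (0.27). The first probe sets of Sftpa1 and Sftpb had almost the same profile (0.12), and differed from Sftpd by 0.68 and 0.67 and from Sftpc by 1.81 and 1.92. The second Sftpb probe set was closer to Sftpd (0.26) than to the first Sftpa1 probe set (0.92), so which member Sftpb most resembles depends on the probe set. The gene outside the family closest to Sftpa1 was Ces1d, a carboxylesterase (0.64), and that closest to Sftpb was Chia (0.63). So the members fall into a pattern with lung E16 near intestine (Sftpa1, Sftpb, Sftpd) and a pattern with lung E16 in between (Sftpc). These matches are of group means. Within lung E20 Sftpd and Chia had r = 0.55 (permutation p = 0.102, adjusted p = 0.282, n = 10), and r = -0.041 over 7 arrays without replicates 1, 6 and 8. For Sftpb and Chia these were 0.52 and -0.53. Neither pair passed at either age, nor did Sftpa1 with Ces1d (lowest adjusted permutation p of Pearson r 0.249).

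**Figure D4:**
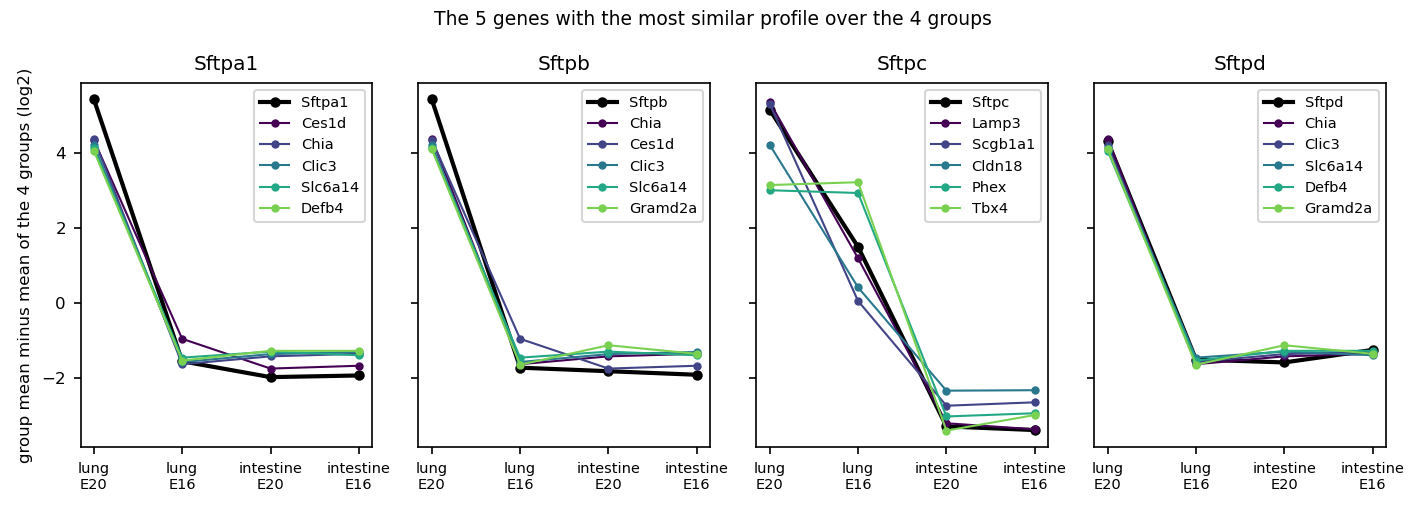
Group means of each member (black) and of its 5 most similar genes (coloured), each minus its own mean over the 4 groups, in log2 units, for lung E20, lung E16, intestine E20 and intestine E16. Lamp3 follows Sftpc through all 4 groups, and Chia, Clic3, Slc6a14, Defb4 and Gramd2a follow Sftpd.

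Genes that process and store surfactant rose with the proteins in lung. Of 16 measured genes of lamellar bodies and surfactant processing, 12 rose and 0 fell (median log2 difference 1.84, against -0.0064 over all genes, where 7.15% of genes were called higher and 4.63% lower). Slc34a2, the phosphate transporter of type II cells, rose by 6.50 (SE 0.13), Napsa, the aspartic protease that cuts the SP-B precursor, by 5.49 (SE 0.13) and Lamp3 by 4.15 (SE 0.20). In intestine 6 of the 16 rose and 0 fell (8.79% and 6.26% of all genes were called there), led by Slc34a2 with 4.30 (SE 0.13), so part of this list rose in an organ where the surfactant proteins did not. The lung change was the larger for 10 of the 16, where 9.12% of genes were called in this direction. Without the arrays that carry other tissues, 12 of the 16 were again called in lung and 6 in intestine.

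Genes listed for surfactant phospholipid synthesis were less uniform. The list is broad and also holds the transcription factor Srebf1 and the triglyceride genes Dgat2 and Pnpla2. In lung 5 of 20 rose and 1 fell (median 0.57; over all genes 7.15% and 4.63%): the desaturase Scd rose by 2.39 (SE 0.17), the triglyceride lipase Pnpla2 rose by 1.98 (SE 0.098) and the fatty acid elongase Elovl6 fell by 2.07 on the log2 scale (SE 0.080). In intestine 8 of the 20 rose and 0 fell (median 0.42; over all genes 8.79% and 6.26%). The change was larger in lung for 2 of the 20 and larger in intestine for 4, against 9.12% and 8.47% of all genes.

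Of 27 measured transcription factors reported to act on surfactant gene promoters, 5 rose and 1 fell in lung (median 0.42; over all genes 7.15% and 4.63%), and 5 rose and 3 fell in intestine (median 0.051; over all genes 8.79% and 6.26%). Klf5, a zinc-finger factor, rose by 2.89 (SE 0.084), Cebpa by 2.78 (SE 0.099) and Cebpd by 2.04 (SE 0.13). These 3 also rose in intestine, by 3.05, 3.53 and 1.47. Nkx2-1, chosen here for its role after its values were seen, read 9.78 to 11.14 in lung E20 and 9.03 to 10.55 in lung E16, overlapping ranges. Its difference of 0.96 (SE 0.14) lay just under the 2-fold minimum, and was 1.14 and called without the arrays that carry other tissues. Nr3c1, the glucocorticoid receptor, chosen in the same way, differed by 0.997 (SE 0.064), also under the minimum, and by 1.02 and was called without those arrays. With both, 7 of the 27 were called higher without those arrays. Calls in lung over all probe sets, in either direction, were also more frequent in that setting (10.1%, against 9.03% in the main fit). At E16 Nkx2-1 was already higher in lung than in intestine (difference 3.03, SE 0.14, limma adjusted p = 5.15e-21).

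Among protein relatives of the members the calls were few, and several lay close to the 2-fold minimum. Of 11 measured relatives of SP-A and SP-D, which are collectins, ficolins and complement proteins with a collagen stalk or their proteases, 3 rose and 0 fell in lung (median 0.24; over all genes 7.15% and 4.63%): the ficolin Fcnb by 2.69 (SE 0.091), C1qa by 1.04 (SE 0.095) and Fcna by 1.02 (SE 0.10). The calls of C1qa and Fcna were lost under several alternatives, for example at 0.98 and 0.94 without the arrays that carry other tissues, which left Fcnb as the 1 call. With lung E16 replicate 9 left out as well, both Fcnb and C1qa were called. Of 4 measured genes grouped with SP-B for a saposin-like fold or lipid handling (median 0.96), 1 rose and 0 fell (over all genes 7.15% and 4.63%). The riser was the activator protein gene Gm2a (1.04, SE 0.060), which was at 0.96 and not called with each array centred on its median. Without the arrays that carry other tissues 3 of the 4 were called, Gm2a at 1.11, the saposin precursor gene Psap at 1.11 and the acid sphingomyelinase gene Smpd1 at 1.08. In that setting 10.1% of all probe sets were called in either direction, against 9.03% in the main fit. The share of all genes called higher was not computed there, so this count has no like share beside it. Of 6 measured genes with the BRICHOS domain that SP-C also carries, 1 rose and 1 fell (over all genes 7.15% and 4.63%). Itm2b rose by 1.13 (SE 0.063) and the cartilage gene Cnmd fell by 4.35 on the log2 scale (SE 0.25). Of 12 genes of surfactant uptake, clearance and receptors, 2 rose and 0 fell in lung (median 0.16; over all genes 7.15% and 4.63%), and likewise 2 rose and 0 fell in intestine (over all genes 8.79% and 6.26%). In lung these were Cd93, a myeloid and endothelial receptor, by 1.37 (SE 0.16; 0.75 and not called with probe sets averaged), and Csf2ra, the receptor chain for granulocyte-macrophage colony-stimulating factor, by 1.16 (SE 0.098; 0.96 and not called with 50 units added).

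**Figure D5:**
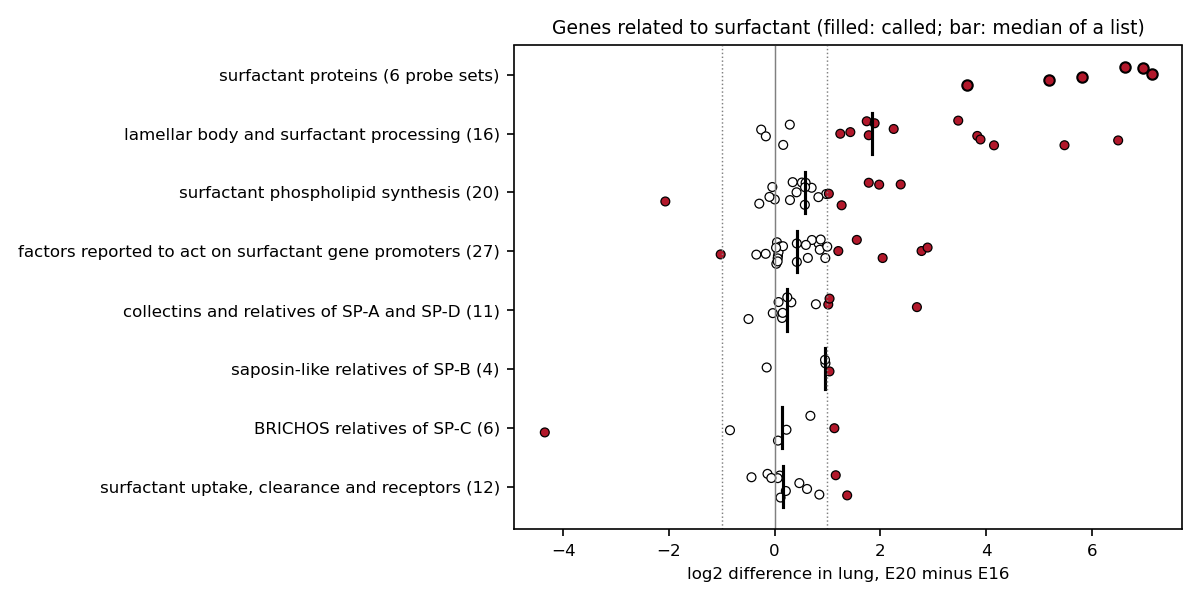
Log2 difference in lung, E20 minus E16 (horizontal axis), for the 6 member probe sets and for each measured gene of 7 lists, with the number measured in parentheses. Filled points were called, open points were not, black bars are list medians and dotted lines mark 2-fold. The 6 member probe sets lie between 3.65 and 7.13, and lamellar body genes have the highest list median (1.84).

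Most markers of the cells that make surfactant proteins rose, although 6 of the 8 type II markers that did are lamellar body genes already counted. Of 9 measured alveolar type II markers other than the members 8 rose, and their summed intensity was 52074 to 76238 in lung E20, against 4697 to 7364 in lung E16. In intestine 4 of the 9 rose, where 8.79% of all genes were called higher and 6.26% lower. For the lung counts of markers here, the shares over all genes were 7.15% called higher and 4.63% called lower. Of 5 club cell markers 4 rose (21208 to 32237 in lung E20, against 786 to 1338 in lung E16), and of 9 alveolar type I markers 7 rose (41451 to 68629, against 10649 to 12804). The part of these cell types in the rise of each member was not tested. Macrophage markers, among them Lyz2, which type II cells also express, summed to 19547 to 26239 in lung E20, against 3304 to 4411 in lung E16, and 3 of 7 rose. Erythroid markers were lower at E20, at 7833 to 18249, against 44788 to 61809 in lung E16, and 4 of 6 fell. Of 6 markers of thyroid, which also expresses Nkx2-1, 0 were called, 1 lay above the table-wide median at each age, and their sum was 953 to 1322 in lung E20 and 914 to 1362 in lung E16.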

How the data were processed

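RNA of 40 samples was measured on Affymetrix rat arrays. Per the labels' protocols, RNA was extracted with Trizol and labelled with biotin by the single-cycle protocol. The authors deposited 1 intensity for each probe set and array, normalized and not on a log scale (6.65 to 39901), made with RMA per the submitters' processing notes, version not given in the sources used here; whether both organs were normalized together is not given either. Log2 was taken here. The 57 control probe sets were left out, and 31042 were tested. Of these 20826 had 1 gene symbol, 436 several and 9780 none, and symbols were updated through 20758 Entrez identifiers found in the GRCr8 gene table. Counts of list genes use the probe set with the highest mean.

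Groups were compared with limma 3.58.1 (R 4.3.3), with a mean for each of 4 groups, all 40 arrays, 5 contrasts, Benjamini-Hochberg adjustment over all probe sets, two-sided; the procedure was tested on simulated data. Alternatives covered normalization, an offset, filters, weights, blocks and left-out arrays. SD is over the 10 arrays of a group. The number of arrays limits the precision. Correlations used 100000 permutations, two-sided (SciPy 1.17.1). Members and gene lists were chosen with earlier results of these data known. Named list genes are up to 3 called members with the largest change in lung, and the most similar genes are the 5 closest profiles. Promoter sequences are from RefSeq.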

Additional observations from a re-analysis of the deposited data

Results flagged for a closer look

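The change between E16 and E20 differed between lung and intestine in the interaction term of the limma fit for all 6 member probe sets. The change in lung minus that in intestine was 7.01 and 6.89 log2 units for the first and second Sftpa1 probe sets, 7.04 and 5.42 for those of Sftpb, 3.55 for Sftpc and 6.14 for Sftpd.

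In 3 of 24 sets of 10 arrays the highest or lowest array stood apart from the others by Dixon's test; chance marks about 1 set in 20. The second Sftpa1 probe set read 12.51 in lung E20 replicate 9, where the next array read 12.11. The first Sftpb probe set read 5.65 in intestine E20 replicate 3, where the next read 6.07. The second Sftpb probe set read 6.08 in intestine E16 replicate 8, where the next read 5.37.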

How the results depend on the processing

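The rise in lung, the larger change in lung than in intestine and the excess over intestine at E20 were called for every member probe set that an alternative could give, under all alternatives and with any array left out, as was the excess of Sftpc at E16. Leaving out single arrays gave 6.93 to 7.01 for Sftpa1, 7.09 to 7.19 for Sftpb, 3.57 to 3.71 for Sftpc and 5.79 to 5.83 for Sftpd in lung. The sign of several uncalled differences did turn. For the first Sftpa1 probe set in intestine (-0.044) it was 0.14 after quantile normalization, 0.0042 with arrays centred, 0.00059 with array weights and 0.042 without the arrays that carry other tissues, and leaving out single arrays gave -0.11 to 0.023, the highest without intestine E16 replicate 8. At E16 the second Sftpa1 probe set (-0.13) differed by 0.090 after quantile normalization and by 0.022 with arrays centred, and the second Sftpb probe set (-0.16) by 0.17 after quantile normalization. With probe sets averaged, Sftpb in intestine differed by -0.067. Among pairs of members, the correlation of Sftpa1 with Sftpb in lung E16 turned (0.056 centred, 0.027 quantile). In lung E20 those of Sftpa1 with Sftpc (-0.072) and Sftpc with Sftpd (-0.15) turned after quantile normalization. That of Sftpb with Sftpd turned without lung E20 replicates 1, 6 and 8 (-0.0063). The cause was not tested.

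Counts of calls, in the order lung, intestine, difference of the changes, organs at E16 and organs at E20, were 2802, 3665, 4255, 1292 and 3907. Fewer features were tested with 1 probe set for each gene (1674, 2140, 2503, 730 and 2292), with probe sets averaged (1513, 1923, 2262, 670 and 2097) and, from intestine on, with probe sets above the median alone (2432, 2766, 720 and 2449). A test against a 2-fold change gave 1590, 2409, 2341 and 681 in the first 4. Leaving out single arrays gave 2717 to 2897 calls in lung. Same-numbered lung and intestine arrays deviated together (r over 0.1) in 4 of 10 pairs at E20 and in 7 of 10 at E16, and 2 and 7 correlated best with their own number, a hint of pairing at E16 from the data and not from the design. As not every pair did so, the numbers were not taken as pairs. They were fitted as a replicate block too, which changed no call of a member (Sftpb in lung 7.13, limma adjusted p = 1.23e-37 with a random and 7.94e-30 with a fixed block) and gave 2802 and 2803 calls in lung. The random block joined arrays of a number within an age. The fixed block also joined E16 with E20 arrays of that number, so it does not model pairs within an age. Counts without the arrays that carry other tissues, for the lists, were chosen after seeing the data. Dim values limit what can be said of Sftpa1, Sftpb and Sftpd outside lung E20 and of Sftpc in intestine, and the top of the scale what can be said of Sftpc there.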
